A study of Mus musculus with 38 samples.

Results

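The 8 genes followed here were the necroptosis genes Ripk1, Ripk3, Mlkl and Zbp1 and the gasdermins Gsdmd, Gsdmc2, Gsdmc3 and Gsdmc4. They were picked by name, as 8 of the 46078 gene rows in the count tables, and all 8 passed the filter on low counts in every comparison. RNA sequencing had been done on epithelial cells isolated from the intestine of C57BL/6 mice, with 1 library per numbered animal and 38 libraries in all; the series text names the colon as the tissue. KO mice (Hk2ΔIEC) carried a floxed Hk2 gene, which encodes the glycolytic enzyme hexokinase 2, and Cre recombinase driven by the Villin promoter, which is active along the intestinal epithelium. WT mice were their Hk2 fl/fl littermates, so that the floxed allele was shared by both genotypes. There were 4 WT and 5 KO libraries from untreated mice (day 0), 7 WT and 8 KO libraries after 3 days of 1.5% dextran sodium sulfate (DSS) in the drinking water, and 7 WT and 7 KO libraries after 7 days. DSS damages the colonic epithelium and sets off colitis. The DSS mice were males of 10 to 12 weeks and the genotypes were housed together; the labels give untreated mice as 9 to 11 or 86 to 92 weeks old without tying an age or sex to a library. A p-value below measures the spread between these libraries.

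Necroptosis is a lytic form of cell death in which the kinases RIPK1 and RIPK3 join through their RHIM domains and RIPK3 phosphorylates MLKL, which then breaches the plasma membrane. ZBP1, an interferon-inducible sensor of nucleic acids in the Z conformation, can engage RIPK3 in place of RIPK1. Gasdermins are pore-forming proteins that are released by proteolytic cleavage: GSDMD is cut by inflammatory caspases in pyroptosis, and the mouse Gsdmc genes are a family expressed in gut epithelium and known to respond to type 2 cytokines. In the colon, epithelial caspase-8 restrains RIPK3 and MLKL.

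The 3 Gsdmc members lie side by side on the minus strand of GRCm38: Gsdmc2 at chr15:63824346-63845177, Gsdmc3 at chr15:63857724-63878558 and Gsdmc4 at chr15:63891264-63912297. Their coding sequences, 1440 bases each, were 97.1% identical between Gsdmc2 and Gsdmc3, 93.7% between Gsdmc2 and Gsdmc4 and 93.8% between Gsdmc3 and Gsdmc4. Of the 50-base windows in the annotated transcripts, 51.3% of those of Gsdmc2, 46.03% of Gsdmc3 and 39.0% of Gsdmc4 occurred letter for letter in another gene of the cluster. The sequencing reads were 50 bases long and paired, so a pair lying wholly in such windows cannot be placed by its sequence, and the 3 counts are to that extent uncertain. The following 60-base stretches, from exon 11 of Gsdmc2 (chr15:63826868-63826927), exon 10 of Gsdmc3 (chr15:63860298-63860357) and exon 9 of Gsdmc4 (chr15:63893815-63893874), are shown because they are among the places that tell the genes apart; capitals mark the 15 positions at which the 3 are not all alike.
Gsdmc2: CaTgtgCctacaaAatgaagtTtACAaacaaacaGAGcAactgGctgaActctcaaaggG
Gsdmc3: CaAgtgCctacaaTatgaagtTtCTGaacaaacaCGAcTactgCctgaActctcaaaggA
Gsdmc4: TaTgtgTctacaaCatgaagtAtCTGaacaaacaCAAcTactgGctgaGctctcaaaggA

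Gsdmd lies apart from this cluster, at chr15:75862339-75867404 on the plus strand. Ripk3 lies at chr14:55784996-55788857 on the minus strand, Mlkl at chr8:111311797-111338177 on the minus strand, Zbp1 at chr2:173206612-173218923 on the minus strand and Ripk1 at chr13:34002363-34035170 on the plus strand. For Ripk1, 38.3% of the exon bases overlap exons of Gm17084 or Serpinb6a, and the counts, made without strand, are uncertain to that extent. The other 7 genes overlap no exon of another gene. RefSeq promoter windows on GRCm38.p6, cut to the 250 bases before the start, were at hand for 4 of the 8 genes. They were searched on both strands for the interferon-stimulated response element core (GAAA, any 2 bases, GAAA), held by 2.98% of the 32851 promoters in the table, the gamma-activated site TTCNNNGAA, held by 7.02%, and the STAT6 site (TTC, any 4 bases, GAA), held by 5.85%. The windows of Ripk3 (chr14:55788858-55789107, minus strand) and Mlkl (chr8:111338206-111338455, minus strand), printed because these genes moved together in the data, held none of the 3, and neither did that of Gsdmc3 (chr15:63878559-63878808, minus strand). Of the pair of Ripk1 windows, the one just before the gene span given above (chr13:34002113-34002362, plus strand) held none of the 3. The other (chr13:34002624-34002873, plus strand) lies inside that span. It held 2 gamma-activated sites and 1 STAT6 site, in capitals and not overlapping. A match is a string of letters only and says nothing of binding.
Ripk3: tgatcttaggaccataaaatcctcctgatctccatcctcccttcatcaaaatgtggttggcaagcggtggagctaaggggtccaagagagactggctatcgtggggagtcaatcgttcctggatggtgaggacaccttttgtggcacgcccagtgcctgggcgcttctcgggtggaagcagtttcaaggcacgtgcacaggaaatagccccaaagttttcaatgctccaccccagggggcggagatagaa
Mlkl: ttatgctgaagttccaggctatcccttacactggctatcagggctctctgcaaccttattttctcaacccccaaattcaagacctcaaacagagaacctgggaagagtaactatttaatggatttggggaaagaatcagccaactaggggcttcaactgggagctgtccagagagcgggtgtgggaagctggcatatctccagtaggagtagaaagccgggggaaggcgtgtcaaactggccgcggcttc
Ripk1: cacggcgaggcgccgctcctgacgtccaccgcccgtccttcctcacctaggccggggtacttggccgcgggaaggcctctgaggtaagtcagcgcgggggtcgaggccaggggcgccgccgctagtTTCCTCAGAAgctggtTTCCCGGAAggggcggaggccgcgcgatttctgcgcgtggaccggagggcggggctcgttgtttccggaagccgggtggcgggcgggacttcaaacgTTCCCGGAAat

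Some libraries stood apart before any comparison. Totals, in units of 1e6 counted read pairs, ran from 10.50 to 60.6 with a median of 43.2; 8 of the 9 day 0 libraries were the shallowest, at 10.50 to 18.9. All day 0 libraries carried another name series than the DSS libraries, and histone genes took 0.266 to 0.413% of their counts against 0.0120 to 0.0541% in the DSS libraries, so that wherever day 0 is compared, DSS and library series cannot be told apart. Xist exceeded the Y-linked genes in 1 WT and 1 KO library of day 0 and in 0 of the DSS libraries. Hk2, the deleted gene, was at 31.2 to 111 CPM (counts scaled to 1e6 per library) in KO and 247 to 439 CPM in WT on day 0, and at 56.6 to 260 against 231 to 598 CPM on day 7. The highest KO library of day 7, d7_KO_420 at 260 CPM, lay within the WT range, above d7_WT_431 at 231 CPM. The next highest KO library was at 198 CPM. All day 7 libraries were kept under their labels. Each was left out in turn for KO against WT on day 7 and for day 7 against day 3. On day 3 Hk2 was at 70.9 to 131 CPM in 7 KO libraries but at 440 CPM in the library labelled d3_KO_345, above every WT library of that day (99.3 to 224 CPM). That library goes against its label. The lowest of those WT libraries, labelled d3_WT_346 and at 99.3 CPM, lay within the range of the 7 KO libraries and in this goes against its label too; the next lowest WT library was at 145 CPM. Both were kept under their labels, and results that rest on day 3 are also given without them, fits without d3_WT_346 having been added after seeing the data. The cells carried epithelial markers throughout (8 genes, 10662 to 23988 CPM summed). Neutrophil markers (9 genes) summed to at most 3.66 CPM on day 0 and to at most 1.86 CPM in WT on day 3, but to 91.3 to 1037 CPM in WT and 40.1 to 1528 CPM in KO on day 7; the library labelled d3_KO_345 was at 60.3 CPM.

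Between day 3 and day 7 of DSS, Ripk3, Mlkl, Zbp1 and Gsdmd rose in WT and in KO, Gsdmc3 and Gsdmc4 fell in both, Gsdmc2 fell in KO, and Ripk1 passed the test in neither genotype. In WT, 6 of the 8 genes passed edgeR's quasi-likelihood test at an adjusted p under 0.05, 4 higher and 2 lower, against 19.3% of all 15541 genes tested (10.6% higher and 8.7% lower). In KO it was 7 of 8, 4 higher and 3 lower, against 19.3% of 15568 genes (10.5% higher and 8.83% lower). Without the library labelled d3_WT_346, 6 of the 8 passed in WT as well, at log2 fold changes of 1.49 for Ripk3, 0.62 for Mlkl, 1.00 for Zbp1, 0.77 for Gsdmd, -1.42 for Gsdmc3 and -1.08 for Gsdmc4. The median log2 fold change over all genes was 0.01 in WT and -0.01 in KO. In bulk RNA, fewer cells of a type cannot be told apart from less RNA per cell.

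**Figure D1:**
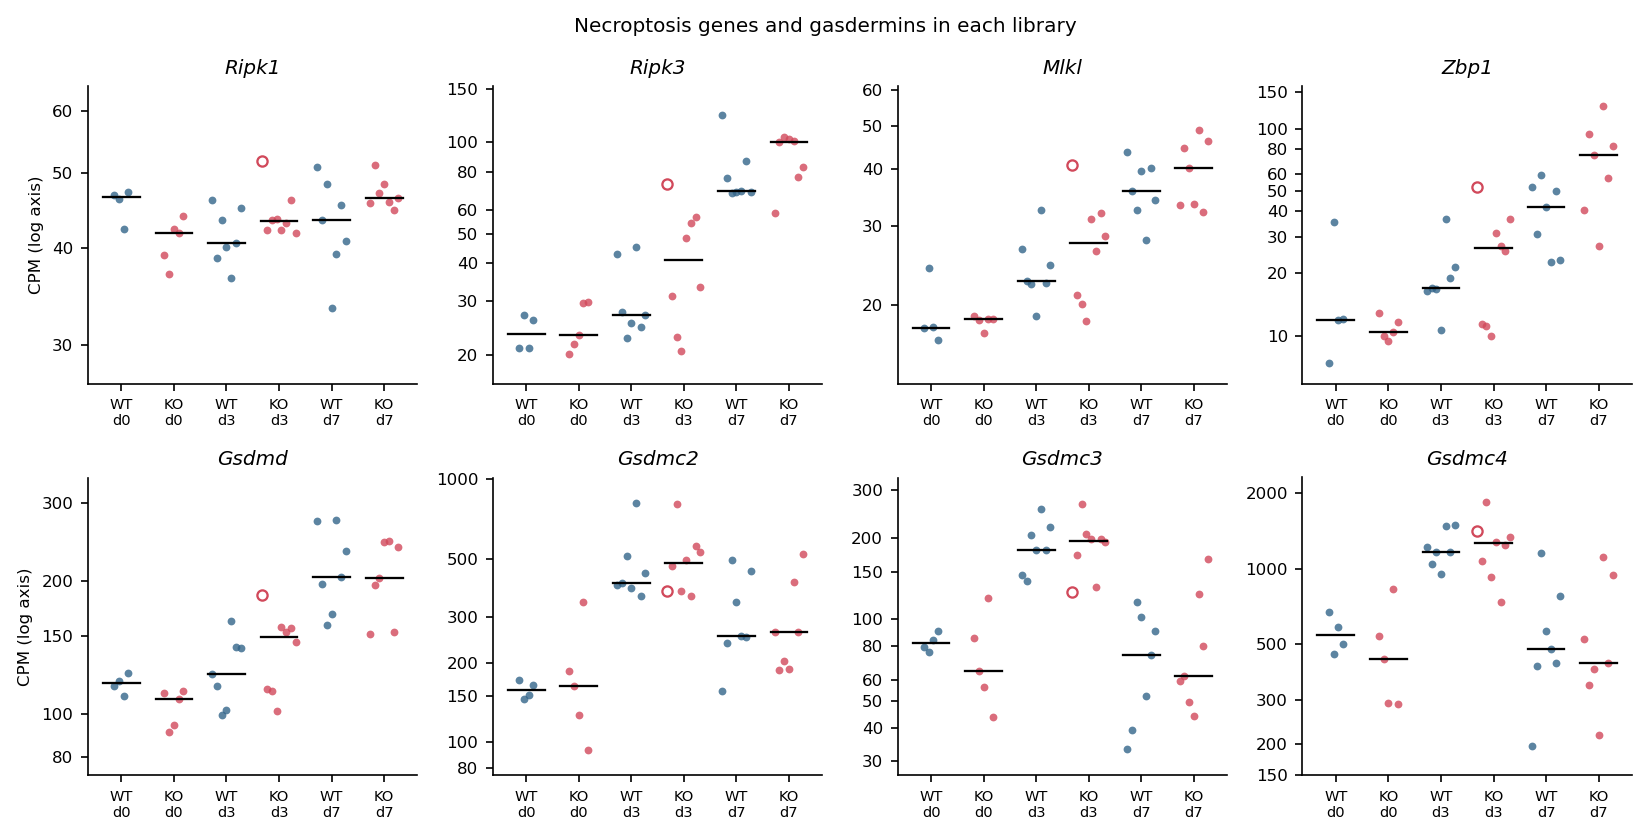
CPM (log axis) of the 8 genes in each of the 38 libraries, by genotype (WT blue, KO red) and day of DSS; each point is 1 library, the bar is the group median and the open circle is the library labelled d3_KO_345. Ripk3, Mlkl, Zbp1 and Gsdmd have their highest medians on day 7 in both genotypes, and the 3 Gsdmc genes on day 3.

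Ripk3, the kinase that commits a cell to necroptosis, had the largest rise of the 8 in WT. It measured 22.7 to 45.3 CPM on day 3 (median 27.1, n = 7) and 68.0 to 123 CPM on day 7 (median 69.0, n = 7). Every WT library of day 7 lay above every WT library of day 3. The log2 fold change was 1.39 (SE 0.18), or 2.62-fold with a 95% interval of 2.00 to 3.44 (edgeR quasi-likelihood test, adjusted p = 0.000137). In KO, Ripk3 went from 20.6 to 72.9 CPM (median 40.9, n = 8) to 58.6 to 104 CPM (median 100.3, n = 7), and 6 of the 7 day 7 libraries lay above all of day 3. The KO log2 fold change was 1.077 (SE 0.24, adjusted p = 0.00452). Leaving out the library labelled d3_KO_345 gave 1.23 (SE 0.22, adjusted p = 0.000971); it was the highest of its group at 72.9 CPM.

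Mlkl encodes the pseudokinase that permeabilizes the membrane at the end of the pathway. In WT it measured 18.9 to 32.5 CPM on day 3 (median 22.6) and 27.8 to 43.7 CPM on day 7 (median 35.9). In KO the ranges were 18.4 to 40.99 CPM (median 27.4) and 32.2 to 49.0 CPM (median 40.4). The days overlapped in both genotypes, but 5 of 7 WT and 3 of 7 KO libraries of day 7 exceeded all of day 3. The rise was 1.51-fold in WT (log2 0.60, SE 0.12, adjusted p = 0.00353) and 1.46-fold in KO (log2 0.55, SE 0.16, adjusted p = 0.0216; edgeR quasi-likelihood test). Without the library labelled d3_KO_345 the KO log2 fold change was 0.66 (SE 0.14).

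Zbp1, the Z-nucleic acid sensor upstream of RIPK3, spread widely among DSS libraries of the same group. In WT it spanned 10.7 to 36.5 CPM on day 3 (median 16.9) and 22.6 to 59.5 CPM on day 7 (median 41.6). In KO it spanned 9.94 to 52.1 CPM (median 26.4) and 27.2 to 128 CPM (median 74.7). Of the day 7 libraries, 4 of 7 in WT and 5 of 7 in KO were above all of day 3 in their genotype. The rise was 2.06-fold in WT (log2 1.04, SE 0.27, adjusted p = 0.0129) and 2.82-fold in KO (log2 1.49, SE 0.38, adjusted p = 0.0103; edgeR quasi-likelihood test). The KO log2 fold change was 1.72 (SE 0.37) without the library labelled d3_KO_345.

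Ripk1, the kinase and scaffold at the head of TNF signalling, stayed within a narrow band. Group medians ran only from 40.6 CPM (WT day 3) to 46.6 CPM (WT day 0). From day 3 to day 7 the log2 fold change was 0.07 in WT (95% interval -0.12 to 0.26) and 0.09 in KO (-0.02 to 0.20), and neither passed the test (edgeR quasi-likelihood test, adjusted p = 0.639 and 0.264). Without the library labelled d3_KO_345, the highest KO library of day 3 at 51.8 CPM, the KO value was 0.13 (adjusted p = 0.0512). The intervals allow a change of at most 1.195-fold in WT and 1.15-fold in KO.

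Gsdmd, the executor of pyroptosis, had the highest level per kilobase of exon among the 4 genes that rose. It measured 99.7 to 162 CPM in WT on day 3 (median 123) and 159 to 274 CPM on day 7 (median 204). In KO it measured 102 to 186 CPM (median 149) and 152 to 246 CPM (median 203). All but 1 WT library of day 7, and 5 of 7 KO libraries, exceeded the whole day 3 range of their genotype. The rise was 1.72-fold in WT (log2 0.78, SE 0.14, adjusted p = 0.0016) and 1.46-fold in KO (log2 0.54, SE 0.14, adjusted p = 0.0126; edgeR quasi-likelihood test), and 0.61 on the log2 scale (SE 0.14) in KO with the library labelled d3_KO_345 left out.

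The Gsdmc genes moved the other way. Gsdmc4 measured 949 to 1500.4 CPM in WT on day 3 (median 1169) and 195 to 1154 CPM on day 7 (median 479), and in KO 735 to 1853 CPM (median 1264) and 217 to 1114 CPM (median 420.5). Every day 7 library but 1 in WT, and 5 of 7 in KO, lay below all of day 3. The fall was 2.11-fold in WT (log2 -1.07, SE 0.29, adjusted p = 0.015) and 2.18-fold in KO (log2 -1.12, SE 0.30, adjusted p = 0.0153; edgeR quasi-likelihood test). Gsdmc3 fell 2.58-fold in WT (log2 -1.36, SE 0.26, adjusted p = 0.00197), from 138 to 255 CPM down to 33.4 to 116 CPM, with no overlap between the days. In KO it fell 2.23-fold (log2 -1.15, SE 0.27, adjusted p = 0.00551), from 127 to 266 CPM down to 44.2 to 167 CPM. Gsdmc2 had the smallest estimates: 360.6 to 814 CPM on day 3 and 157 to 496 CPM on day 7 in WT gave a log2 fold change of -0.58 (SE 0.25) that did not pass (edgeR, adjusted p = 0.114), though it did without d7_WT_370 (log2 -0.73, adjusted p = 0.0417). In KO, 359 to 808 CPM on day 3 and 189 to 521 CPM on day 7 gave a fall of 0.77 on the log2 scale (SE 0.24, adjusted p = 0.0306). That call was lost in 8 of the 15 fits that left out 1 library, with adjusted p between 0.0501 and 0.0666; these were d3_KO_350, d3_KO_388, d3_KO_392, d7_KO_366, d7_KO_367, d7_KO_368, d7_KO_420 and d7_KO_422. Without the library labelled d3_KO_345 the KO values were -0.82 for Gsdmc2, -1.22 for Gsdmc3 and -1.09 for Gsdmc4, and all 3 passed.

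**Figure D2:**
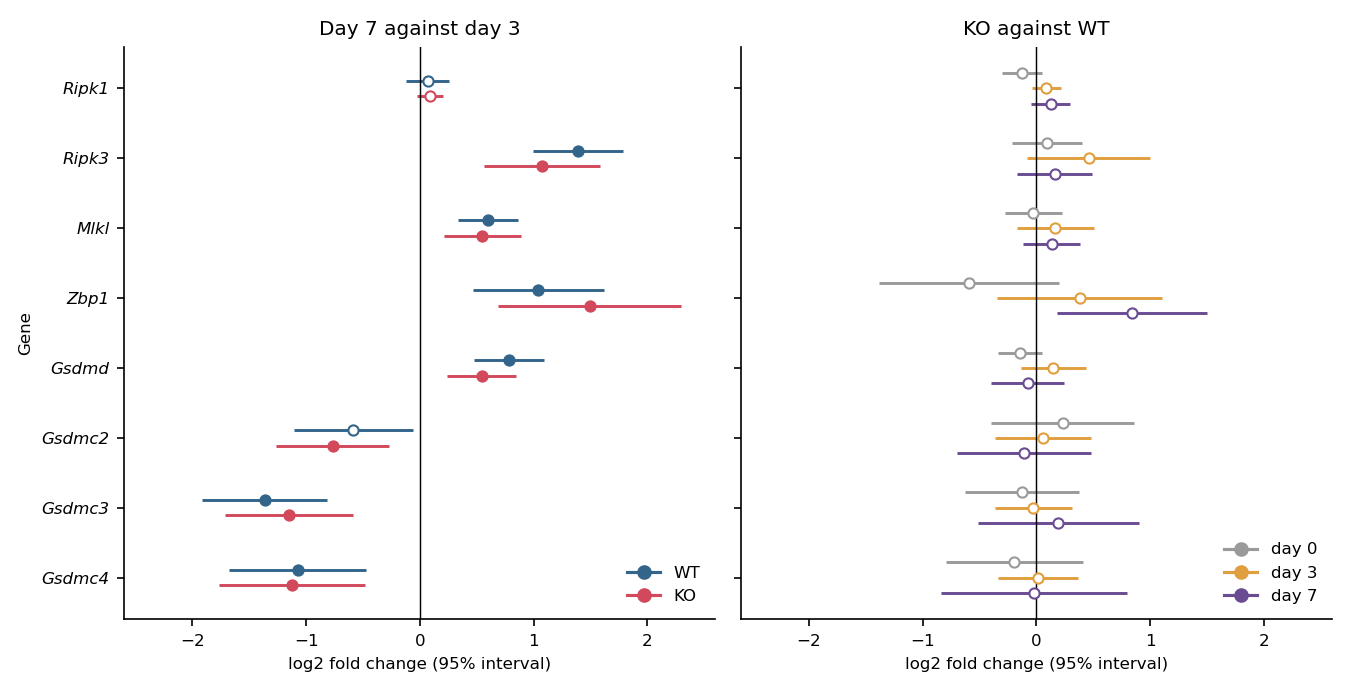
Log2 fold changes from edgeR with their 95% intervals for the 8 genes: on the left day 7 against day 3 in WT and KO, on the right KO against WT on each day. Filled points passed an adjusted p of 0.05; on the left they number 6 in WT and 7 in KO, and on the right there is none.

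The estimated falls differed among the 3 Gsdmc genes, with overlapping 95% intervals, and their mean shares differed between the days. Whether the genes fell unequally was not tested. Levels were compared per kilobase of exon, since the genes differ in length. Gsdmc2 made up 23.2% ± 3.83 (SD, n = 7) of the summed per-length level of the 3 genes in WT on day 3 and 31.96% ± 3.65 (n = 7) on day 7, and 24.2% ± 2.86 (n = 8) and 30.6% ± 5.03 (n = 7) in KO. Without the libraries labelled d3_WT_346 and d3_KO_345 the day 3 shares were 23.6% ± 4.04 (n = 6) and 25.1% ± 1.55 (n = 7). On day 0 it was 18.7% ± 1.74 (n = 4) in WT and 23.0% ± 1.95 (n = 5) in KO. Gsdmc4 remained the main transcript in every group, at 60.7% (WT day 7) to 71.7% (WT day 0) of the sum, and Gsdmc3 made up 7.30 to 9.68%. The ranges of day 3 and day 7 overlapped for Gsdmc2 (19.03 to 30.1% and 26.2 to 38.6% in WT). The shares were not tested, and they carry the uncertainty of the shared windows.

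The neighbour Gsdmcl2 lies between Gsdmc3 and Gsdmc4 on the plus strand and shares 0 of its 50-base windows with Gsdmc2, Gsdmc3 or Gsdmc4. Its span ends at 63890512, close to that of Gsdmc4 on the minus strand, which starts at 63891264. The counts were made without strand, so reads of either strand over Gsdmcl2 were counted to it. Gsdmcl2 was lower on day 7 too. In WT it measured 93.9 to 199 CPM on day 3 against 15.1 to 106 CPM on day 7, and the estimate was -1.34 on the log2 scale (SE 0.33, adjusted p = 0.0105); in KO the log2 fold change was -1.61 (SE 0.32, adjusted p = 0.00206; edgeR quasi-likelihood test). Without the libraries labelled d3_WT_346 and d3_KO_345 these were -1.38 and -1.596. Gsdmc itself, at the other end of the cluster, was nearly absent, with 0 to 8 read pairs a library and at most 0.211 CPM. Gsdme, a gasdermin cut by caspase-3, was at 15.1 to 23.9 CPM in WT on day 3 and 16.5 to 30.8 CPM on day 7 and did not pass in either genotype (adjusted p = 0.11 in WT and 0.288 in KO). Of the 9 other gasdermin genes and pseudogenes looked up, 4 were high enough to be tested, and Gsdmcl2 was the 1 that passed in each genotype.

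**Figure D3:**
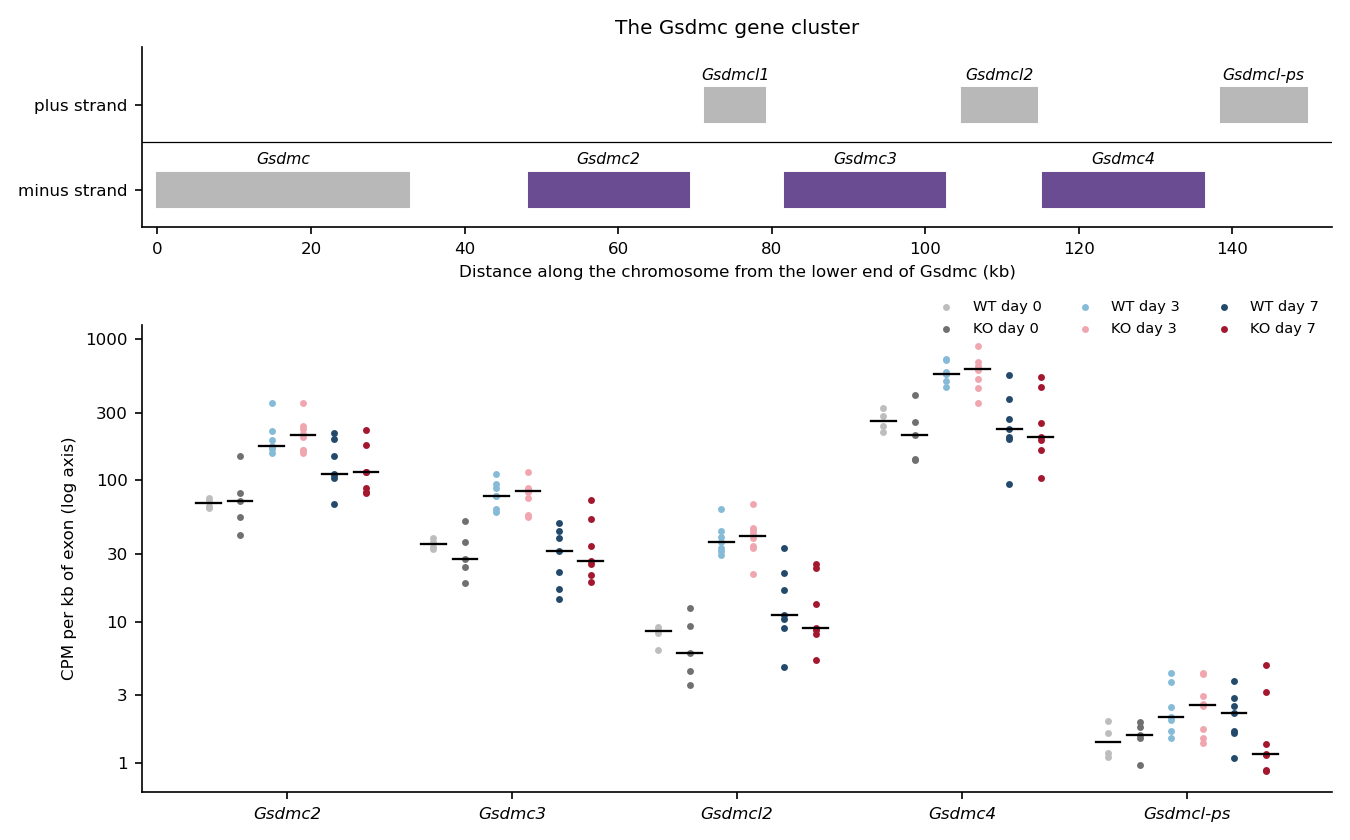
Top, the Gsdmc cluster drawn to scale in kilobases, with the members in purple and the other genes in grey. Bottom, level of 5 genes of the cluster in CPM per kilobase of exon (log axis), each point 1 library and each bar a group median; Gsdmc4 is the highest throughout and Gsdmc2, Gsdmc3, Gsdmcl2 and Gsdmc4 have their highest medians on day 3. Gsdmc and Gsdmcl1 are left out because they were at or near 0.

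Leukocyte content moved with these changes. The 15 leukocyte markers, none of them at 0 in a whole group, summed to 15.6 to 71.2 CPM in WT on day 3 (median 41.1) and 72.2 to 362 CPM on day 7 (median 129), and in KO to 45.9 to 107 CPM (median 53.1) and 121 to 343 CPM (median 233). With the mean log2 CPM of these markers as a covariate, 0 of the 8 genes passed in WT and 0 in KO by edgeR's quasi-likelihood test, with 4 and 0 at an unadjusted p under 0.05 against 29.2% and 4.09% of all genes; over all genes 135 and 1 passed. DESeq2 was not run with this covariate. In WT the estimates for the rising genes were 1.24 for Ripk3 (adjusted p = 0.068), 0.62 for Mlkl (0.116), 0.90 for Zbp1 (0.283) and 1.03 for Gsdmd (0.0631, edgeR quasi-likelihood test). Their SE were 0.35, 0.24, 0.55 and 0.27, against 0.18, 0.12, 0.27 and 0.14 without the covariate. The score itself was at 0.28 ± 0.62 (SD) on day 3 and 2.29 ± 0.78 on day 7 in WT, so the fit can hardly separate it from the day. The WT estimates were -0.25 for Gsdmc2, -1.18 for Gsdmc3 and -0.66 for Gsdmc4 (adjusted p = 0.764, 0.139 and 0.449), against -0.58, -1.36 and -1.07 without the covariate. In KO the rising genes were at 0.55, 0.39, 0.95 and 0.51, and Gsdmc2, Gsdmc3 and Gsdmc4 turned to 0.54, 0.44 and 0.0023. Leaving out the library labelled d3_KO_345 moved the KO estimates with this covariate to 1.38 for Ripk3, 1.04 for Mlkl, 1.93 for Zbp1, 0.97 for Gsdmd and 0.74 for Gsdmc4. Again 0 of 8 were called, with 2 at an unadjusted p under 0.05 against 461 of 15413 genes. Leaving out d3_WT_346 left 0 of 8 in WT. The SE of Ripk3 in KO was 0.59 with the covariate and 0.24 without it.

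Genes of the distal colon moved as well, in parallel with the Gsdmc genes. Their mean log2 CPM (Hoxb13, Hoxd10, Hoxd12 and Hoxd13) was 3.097 ± 1.599 (SD, n = 7) in WT and 3.07 ± 0.81 (n = 8) in KO on day 3, and 0.95 ± 1.099 (n = 7) and -0.31 ± 0.95 (n = 7) on day 7; without the libraries labelled d3_WT_346 and d3_KO_345 the day 3 values were 3.097 ± 1.75 (n = 6) and 3.16 ± 0.82 (n = 7). All 4 genes fell in each genotype, against 8.7% of all genes in WT and 8.83% in KO. Hoxd12 had a log2 fold change of -3.15 in WT and -5.14 in KO (edgeR, adjusted p = 0.0145 and 0.000223). The mean of these genes was then used as a covariate, a setting chosen after seeing the data. Ripk3 (log2 1.17, adjusted p = 0.0182) and Gsdmd (log2 0.86, adjusted p = 0.0224) were still called higher in WT by edgeR's quasi-likelihood test. Ripk3, Mlkl, Gsdmd, Gsdmc3 and Gsdmc4 had an unadjusted p under 0.05 there, against 24.1% of all genes. In KO 0 of the 8 passed, with 3 at an unadjusted p under 0.05 (Mlkl, Zbp1 and Gsdmd) against 5.2% of all genes. Without d3_WT_346 the same pair, Ripk3 and Gsdmd, passed in WT, where 751 of 15670 genes passed. Without d3_KO_345 still 0 of 8 passed in KO, with Ripk3 at 1.14 against 0.76 and Zbp1 at 2.70 against 2.04. With all libraries kept, the Gsdmc4 estimate with this score was -0.91 in WT and -0.16 in KO (edgeR, adjusted p = 0.143 and 0.999). It was -0.92 in WT without d3_WT_346 and -0.015 in KO without d3_KO_345. The part of either marker list in the result was not tested further.

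**Figure D4:**
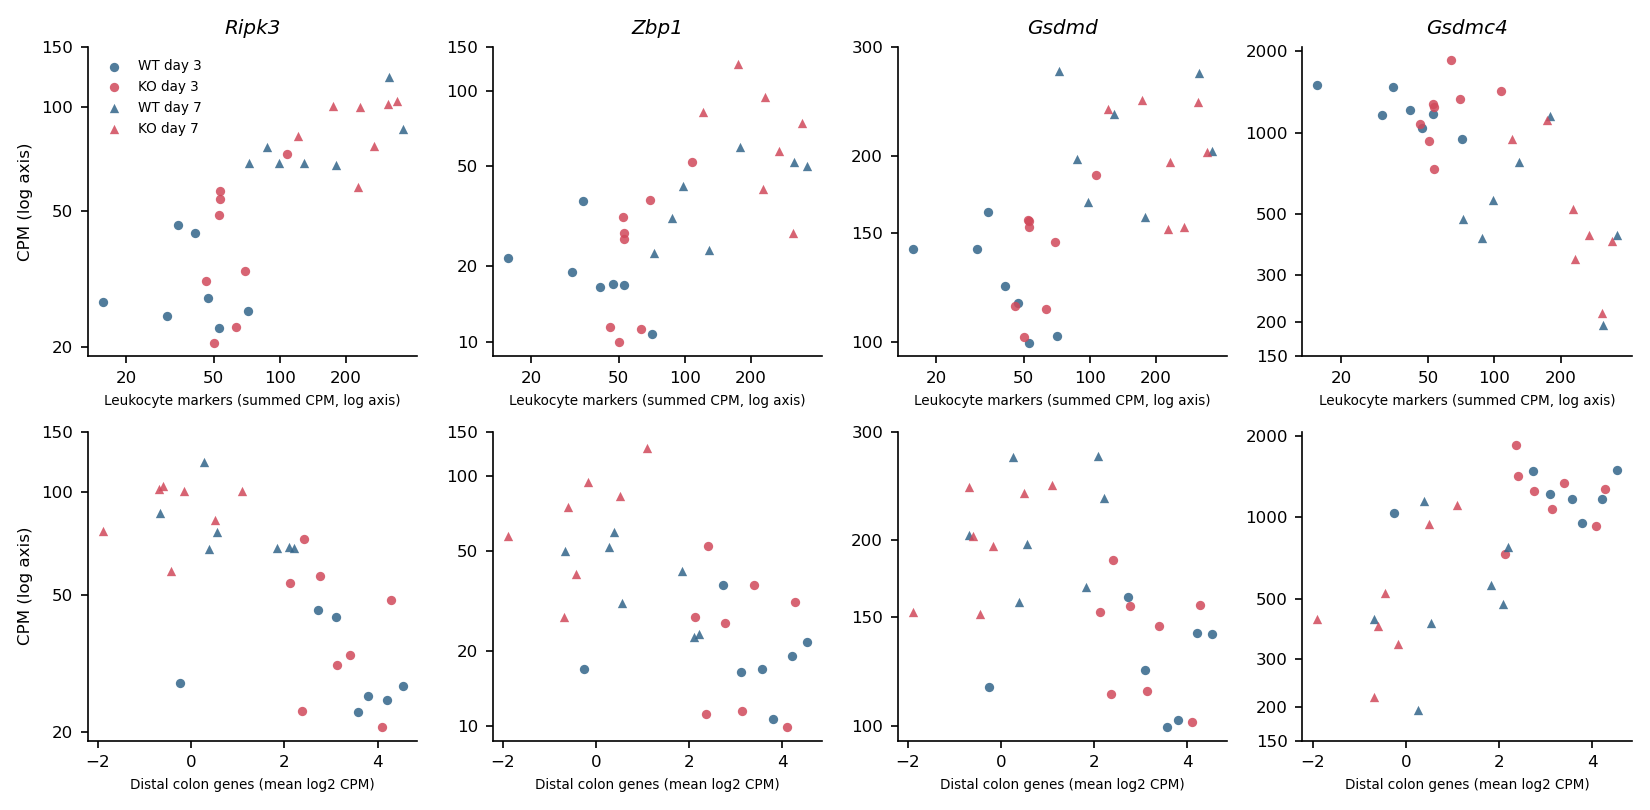
CPM (log axis) of Ripk3, Zbp1, Gsdmd and Gsdmc4 in the 29 DSS libraries against the summed CPM of 15 leukocyte markers (top, log axis) and against the mean log2 CPM of 4 distal colon genes (bottom). Circles are day 3 and triangles day 7; leukocyte markers reach 107 CPM at most on day 3 and run from 72.2 to 362 CPM on day 7.

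None of the 8 genes passed the test between KO and WT on any day. On day 0, day 3 and day 7, 0 of 8 passed, against 0.0335%, 0.00647% and 0.00642% of all genes (5, 1 and 1 genes; on day 0, 0.0201% higher and 0.0134% lower; edgeR quasi-likelihood test), and DESeq2's Wald test also called 0 of 8 on each day. At an unadjusted p under 0.05 the counts were 0, 0 and 1 of 8, against 10.5%, 7.88% and 12.9% of all genes. Small intestine markers (12 genes) had a day 0 mean log2 CPM of 0.87 ± 1.29 (SD, n = 5) in KO and -0.32 ± 0.42 (n = 4) in WT. With this score as a covariate, Gsdmc2 was at 0.65 and Ripk1 at -0.21 on day 0. Both were then at an unadjusted p under 0.05 (edgeR quasi-likelihood test), as were 1758 of 14944 genes, and 0 genes passed the adjusted test. Pooled over the days with day as a term, 0 of 8 passed against 0.0209% of all genes, and 1 of 8 had an unadjusted p under 0.05 against 11.8% of all genes. Without the libraries labelled d3_KO_345 and d3_WT_346, 0 of 8 passed on day 3 and over all days, with 0 and 0 at an unadjusted p under 0.05. With so few genes passing over the whole table, and with 1 of 8 near the share of all genes at an unadjusted p under 0.05, these counts do not set the 8 genes apart.

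The gene with an unadjusted p under 0.05 on day 7 was Zbp1. Its 7 KO libraries spanned 27.2 to 128 CPM (median 74.7) and its 7 WT libraries 22.6 to 59.5 CPM (median 41.6); 4 KO libraries lay above all WT libraries and the ranges overlapped. KO was 1.80-fold above WT (log2 0.84, SE 0.31, 95% interval 1.14 to 2.84-fold, adjusted p = 0.324 by edgeR's quasi-likelihood test). Leaving out 1 library at a time gave 0.65 to 0.99, and with the leukocyte covariate the estimate was 0.81 (adjusted p = 0.563). On day 3 the Zbp1 difference was 0.38 (SE 0.34), or 0.15 (SE 0.32) without the library labelled d3_KO_345 and 0.11 (SE 0.34) without d3_WT_346 as well. On day 0 it was -0.59 (SE 0.36), and here WT library 41, at 35.4 CPM against 7.34, 11.9 and 12.0 CPM in the other WT libraries, set the size: KO libraries were at 12.8, 9.97, 9.39, 10.4 and 11.6 CPM, and without library 41 the difference was 0.09.

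Ripk3 was the gene with an unadjusted p under 0.05 in the fit over all days. There KO was above WT (log2 0.27, SE 0.13, adjusted p = 0.417 by edgeR's quasi-likelihood test); leaving out the library labelled d3_KO_345 gave 0.20 (SE 0.12, adjusted p = 0.533), and leaving out d3_WT_346 as well gave 0.23 (SE 0.12, adjusted p = 0.404). By day the log2 difference was 0.09 (SE 0.14), 0.46 (SE 0.26) and 0.16 (SE 0.15). On day 0 the 4 WT libraries were at 21.03, 27.1, 21.1 and 25.99 CPM and the 5 KO libraries at 20.1, 21.7, 23.2, 29.6 and 29.8 CPM, which overlap. On day 3, 4 of the 8 KO libraries exceeded all WT libraries; without the library labelled d3_KO_345 the difference was 0.31 (SE 0.24), and without d3_WT_346 as well 0.398 (SE 0.25).

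For the other members the intervals limit how large a difference can be. On day 7 the 95% interval of KO over WT was 0.967 to 1.23-fold for Ripk1, 0.922 to 1.31-fold for Mlkl and 0.761 to 1.18-fold for Gsdmd. It was wider for the Gsdmc genes: 0.616 to 1.39-fold for Gsdmc2, 0.698 to 1.87-fold for Gsdmc3 and 0.558 to 1.73-fold for Gsdmc4. On day 3 it was 0.972 to 1.16-fold for Ripk1, 0.889 to 1.42-fold for Mlkl, 0.911 to 1.35-fold for Gsdmd and 0.793 to 1.29-fold for Gsdmc4. Without the library labelled d3_KO_345 the log2 differences of day 3 were 0.05, 0.06, 0.08 and -0.01 for these 4 genes, 0.11 for Gsdmc2 and 0.04 for Gsdmc3. Without d3_WT_346 as well they were 0.07, 0.08, 0.07, -0.02, 0.07 and -0.02 in the same order.

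Whether the genotypes differed in their course was tested directly. For day 7 against day 3, 0 of the 8 interaction terms passed, against 0% of 16371 genes, and 0 of 8 had an unadjusted p under 0.05 against 2.69% of all genes. The largest was Zbp1, which rose 0.47 more in KO on the log2 scale (SE 0.49, adjusted p = 1.00 by edgeR; 0.70, SE 0.47, without the library labelled d3_KO_345, and 0.74, SE 0.49, without d3_WT_346 as well). For day 7 against day 0, 0 of 8 passed against 0.00531% of all genes, and Zbp1 (1.46, SE 0.52, adjusted p = 0.239 by edgeR) and Ripk1 (0.28, SE 0.12, adjusted p = 0.314) were the 2 with an unadjusted p under 0.05, which 13.5% of all genes had. Without WT day 0 library 41 the Zbp1 term was 0.76 (adjusted p = 0.615). DESeq2 called 0 of 8 in either interaction.

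Zbp1 is itself interferon-inducible, and interferon-response genes leaned the same way. On day 7 all 30 listed genes had a KO against WT estimate above 0, from 0.17 to 1.51 with a median of 0.76; 26 of 30 had an unadjusted p under 0.05, against 12.9% of all genes, and 0 passed the adjusted test. The lowest adjusted p among them was 0.291 by edgeR's quasi-likelihood test. On day 3 the median was 0.28 with 30 of 30 above 0, 0.22 with 30 of 30 without the library labelled d3_KO_345, and 0.15 with 25 of 30 without d3_WT_346 as well; on day 0 it was -0.03 with 14 of 29. Genes of 1 pathway move together within a library, so 30 genes are not 30 observations. The list was also chosen with earlier results of these data known, so its counts are no independent test of the Zbp1 difference. On day 7 the leukocyte markers summed to a median of 233 CPM in KO and 129 CPM in WT, with overlapping ranges. Their part in the values of this list was not tested. Between day 3 and day 7, 16 of 30 rose in KO (median 0.74; 16 of 30, median 0.81, without the library labelled d3_KO_345) and 3 of 30 in WT (median 0.25; 1 of 30, median 0.16, without the library labelled d3_WT_346). Of all genes, 10.5% rose in KO and 10.6% in WT between these days, and the WT count is near that share. The interferon-response genes with the smallest p in KO were Irf8, an interferon regulatory factor (0.81, SE 0.08), Ifit2, an antiviral RNA-binding protein (2.75, SE 0.51), Usp18, which removes ISG15 and dampens interferon signalling (1.57, SE 0.34), and Irgm1, an immunity-related GTPase (0.99, SE 0.24). In WT the 3 were Irf8 (0.56, SE 0.15), Ifit2 (1.55, SE 0.50) and Usp18 (0.84, SE 0.28); Irf8 was the 1 that passed without d3_WT_346 (0.47, SE 0.12). None of the 30 interaction terms for day 7 against day 3 passed, with 1 at an unadjusted p under 0.05 (4 without the libraries labelled d3_KO_345 and d3_WT_346), so the calls were not shown to differ between the genotypes.

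**Figure D5:**
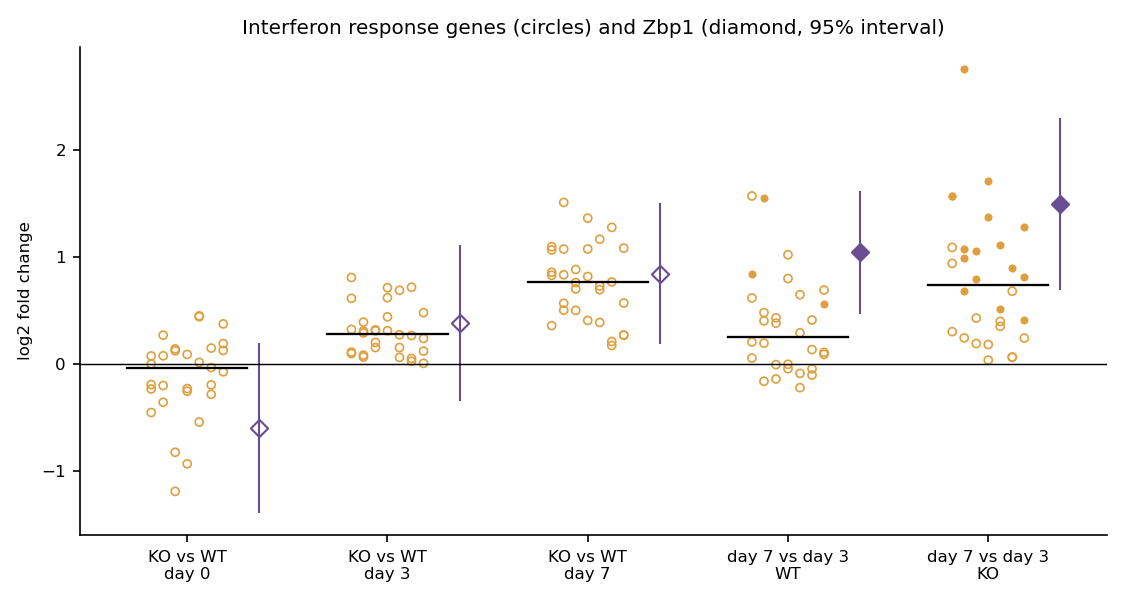
Log2 fold changes of the interferon-response genes (circles, bar at the median) and of Zbp1 (diamond with its 95% interval) in 5 comparisons; filled symbols passed an adjusted p of 0.05. All 30 circles lie above 0 in KO against WT on days 3 and 7, and none of them is filled; without the libraries labelled d3_KO_345 and d3_WT_346, 25 of 30 lie above 0 on day 3.

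The regulators around the necrosome rose in part. The shares over all genes from day 3 to day 7 were 10.6% higher and 8.7% lower in WT. In KO they were 10.5% and 8.83%. Of 28 genes of the TNF receptor complex and its brakes, 6 rose and 0 fell from day 3 to day 7 in WT (median log2 fold change 0.16), and 7 rose and 0 fell in KO (median 0.18); 12 rose in KO without the library labelled d3_KO_345, and 8 rose and 1 fell in WT without d3_WT_346. Tnf, the cytokine that starts the pathway, rose by 1.92 on the log2 scale in WT (SE 0.32, adjusted p = 0.000725) and by 1.89 in KO (SE 0.37, adjusted p = 0.00178; edgeR quasi-likelihood test). Leukocyte markers rose as well, 13 of 15 in WT and 15 of 15 in KO, and their part in the Tnf values was not tested. In WT the other regulators with the smallest p were Tnfaip3, which encodes the ubiquitin-editing enzyme A20 (0.99, SE 0.25), the kinase gene Tbk1 (0.35, SE 0.09) and Tab2, an adaptor of the kinase TAK1 (0.25, SE 0.07). In KO they were Cyld, a deubiquitinase that permits necrosome formation (0.24, SE 0.05), the death receptor gene Fas (0.76, SE 0.19) and Tlr3, a receptor for double-stranded RNA (0.39, SE 0.10). Casp8, whose protease cleaves RIPK1 and RIPK3 and which was singled out after its values were seen, rose in WT (0.50, SE 0.15, adjusted p = 0.0281) and was at 0.47 in KO (SE 0.17, adjusted p = 0.0692), where it passed without the library labelled d3_KO_345 (0.59, SE 0.15, adjusted p = 0.0108; edgeR quasi-likelihood test). Without d3_WT_346 it was at 0.65 in WT (SE 0.11).

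Around Gsdmd, 6 of 20 tested inflammasome and pyroptosis genes rose and 0 fell in each genotype (median 0.33 in WT and 0.32 in KO), with 9 higher in KO without the library labelled d3_KO_345 and 7 in WT without d3_WT_346. The share of all genes that rose was 10.6% in WT and 10.5% in KO. In WT the leading genes were Il1b, the cytokine released through gasdermin pores (5.76, SE 0.64), the sensors Mefv (4.94, SE 0.63) and Nlrp3 (5.24, SE 0.70), and Naip1, a sensor of bacterial needle protein (0.49, SE 0.10). In KO they were Gbp5, a guanylate-binding GTPase (3.25, SE 0.55), Il1b (3.47, SE 0.73; 4.85, SE 0.47, without d3_KO_345), Naip5, a flagellin sensor (0.30, SE 0.07), and the adaptor gene Pycard (0.34, SE 0.08). Il1b, Mefv and Nlrp3 are also genes of neutrophils and macrophages; all 9 neutrophil markers rose in both genotypes between these days, and their part in the result was not tested. Casp1, whose protease cuts GSDMD and which was likewise singled out, was at 0.17 in WT (SE 0.16, adjusted p = 0.502) and 0.21 in KO (SE 0.07, adjusted p = 0.0575), and neither passed edgeR's test.

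Genes of the type 2 cytokine response, to which Gsdmc genes are known to respond, did not move as a group: of 14 tested, 4 rose and 2 fell in WT, and 3 rose and 5 fell in KO, with medians of -0.01 and 0.12. Without d3_WT_346 or d3_KO_345 these counts were the same, with medians of 0.02 and 0.18. Over all genes, 10.6% rose and 8.7% fell in WT, and 10.5% rose and 8.83% fell in KO. These shares also stand beside the colonocyte counts below. Il4ra, the receptor subunit shared by interleukins 4 and 13, rose by 1.305 (SE 0.18) in WT and by 1.34 (SE 0.19) in KO. The goblet cell gene Clca1 fell by 1.57 on the log2 scale (SE 0.36) in WT and by 2.66 (SE 0.37) in KO. Of 14 mature colonocyte genes, 4 rose and 2 fell in WT and 2 rose and 4 fell in KO (3 rose and 1 fell in WT without d3_WT_346, and 3 rose and 4 fell in KO without d3_KO_345). Scnn1a, a subunit of the epithelial sodium channel, fell by 0.74 (SE 0.12) in WT and by 0.91 (SE 0.12) in KO, while Guca2b, which encodes uroguanylin, rose by 0.87 (SE 0.23) and 0.74 (SE 0.13).

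Comparisons with day 0 are given as differences between libraries, since DSS and library series cannot be told apart, and they share libraries with each other and with the comparison of day 7 with day 3. The age and sex of the untreated mice, which the labels do not tie to a library, may differ too. From day 0 to day 3 the 3 Gsdmc genes were higher in both genotypes. Of the 4 distal colon genes, 3 were called higher as well (median 4.15 in WT and 6.95 in KO). Of 7 small intestine genes tested, 5 were called lower in KO (median -1.73) and 1 in WT (median 0.01). The shares over all genes stand below. The part of these lists in the Gsdmc values was not tested. Gsdmc4 went from 675, 456, 587 and 503 CPM in WT to 949 to 1500.4 CPM, with no overlap, and from 537, 434, 292, 828 and 288 CPM in KO to 735 to 1853 CPM. The log2 differences in WT were 1.49 for Gsdmc2, 1.11 for Gsdmc3 and 1.04 for Gsdmc4 (edgeR quasi-likelihood test, adjusted p = 8.81e-05, 9.15e-05 and 0.000215), and 1.52, 1.16 and 1.04 without the library labelled d3_WT_346. In KO they were 1.32, 1.21 and 1.26 (adjusted p = 0.00114, 0.000427 and 0.00125), and 1.37, 1.27 and 1.22 without the library labelled d3_KO_345. Including Ripk1, which was lower by 0.23 in WT (SE 0.08, adjusted p = 0.0364, lost in 3 of 4 fits without 1 day 0 library, those without library 31, 41 or 46, at -0.20, -0.21 and -0.22, and -0.26 without d3_WT_346), 4 of 8 passed in WT, 3 higher and 1 lower, against 46% of all genes (20.4% higher and 25.6% lower). In KO, 5 of 8 passed, all higher, against 46.3% (22.6% higher and 23.7% lower), adding Mlkl (0.45, SE 0.17, adjusted p = 0.0424) and Zbp1 (1.12, SE 0.38, adjusted p = 0.0241). Mlkl did not pass without the library labelled d3_KO_345 (0.33, adjusted p = 0.0617) or without KO day 0 library 24, 53, 54 or 60 (0.43 to 0.46), and Zbp1 did not pass without KO day 0 library 53 (1.078, adjusted p = 0.0599). Over both directions these shares are near the background. The 3 higher genes in WT were the Gsdmc genes, which share sequence, so they are not 3 observations. The 8 genes were chosen with earlier results known, so the counts of higher genes, 3 and 5 of 8, do not set them apart. Ripk3 in KO, which did not pass, did so by DESeq2's Wald test (0.64, adjusted p = 0.0389), with no filter (0.72, adjusted p = 0.032) and with 1 spread over all 38 libraries (0.65, adjusted p = 0.0255); Gsdmd in KO passed with no filter (0.39, adjusted p = 0.023).

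From day 0 to day 7, Ripk3, Mlkl, Zbp1 and Gsdmd were higher in both genotypes. Ripk3 was 3.19-fold higher in WT (log2 1.67, SE 0.18) and 3.33-fold in KO (1.73, SE 0.16), and no day 7 library overlapped with day 0. Mlkl was 1.80-fold higher in WT (0.85, SE 0.15) and 2.00-fold in KO (1.00, SE 0.11), again with no overlap. Gsdmd was 1.75-fold (0.81, SE 0.16) and 1.82-fold higher (0.87, SE 0.14). Zbp1 was 2.27-fold higher in WT (1.19, SE 0.41, adjusted p = 0.0236) and 6.14-fold in KO (2.62, SE 0.33, adjusted p = 1.75e-05; edgeR quasi-likelihood test). The WT value did not pass without day 0 library 31, 43 or 46 (0.96 to 1.06, adjusted p = 0.0598 to 0.0809), and it was 1.86 without library 41, the day 0 library at 35.4 CPM. Gsdmc2 was higher in WT (0.90, SE 0.26, adjusted p = 0.00926) and at 0.56 in KO (SE 0.32, adjusted p = 0.159; 0.92 and 0.0216 without KO day 0 library 54). Gsdmc3, Gsdmc4 and Ripk1 passed in neither genotype, though with no filter on low counts Ripk1 passed in KO (0.21, edgeR adjusted p = 0.0447). In all, 5 of 8 passed in WT, all higher, against 56.9% of all genes (27.8% higher and 29.2% lower). In KO 4 of 8 passed, all higher, against 54.6% (27.3% higher and 27.3% lower). Over both directions both shares are near the background. The 8 genes were chosen with earlier results known, so the counts of higher genes, 5 and 4 of 8, do not set them apart.

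Per kilobase of exon the order of the 8 genes changed over the course. In WT on day 0 it ran Gsdmc4 (266 ± 46.2 CPM per kilobase, SD, n = 4), Gsdmc2 (68.5), Gsdmd (66.0), Gsdmc3 (35.4), Ripk3 (12.1), Mlkl (8.31), Ripk1 (7.44) and Zbp1 (4.72). Gsdmc2 and Gsdmd overlapped there, as did Mlkl with Ripk1 and Ripk1 with Zbp1. In WT on day 7 it ran Gsdmc4 (274 ± 149, n = 7), Gsdmc2 (135), Gsdmd (121), Ripk3 (40.7), Gsdmc3 (31.2), Mlkl (15.8), Zbp1 (11.3) and Ripk1 (7.02). Ripk3 thus stood above Gsdmc3 in mean level on day 7, with overlapping ranges (34.6 to 62.4 and 14.4 to 49.9). Zbp1 stood above Ripk1, with overlapping ranges too (6.41 to 16.9 and 5.45 to 8.29). Levels were divided by the full exon length. Yet 38.3% of the Ripk1 exon bases overlap other genes, and 46.03% of the Gsdmc3 windows are shared. The places of Ripk1 and of the Gsdmc genes in this order are uncertain to that extent.

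Among the rising genes, libraries of the same day that were high for 1 gene tended to be high for others on day 3, and less uniformly on day 7. Over the 15 libraries of day 3, log2 CPM correlated at r = 0.901 between Ripk3 and Mlkl, 0.937 between Mlkl and Zbp1, 0.833 between Ripk3 and Gsdmd and 0.911 between Zbp1 and Gsdmd. Over the 13 libraries left without d3_KO_345 and d3_WT_346 these were 0.859, 0.938, 0.816 and 0.882. Over the 14 libraries of day 7 the same pairs gave 0.624, 0.767, 0.538 and -0.127. The Gsdmc genes correlated with each other at 0.559 to 0.769 on day 3 and 0.865 to 0.946 on day 7, and Ripk3 against Gsdmc4 gave 0.0299 and -0.507. Ripk1 correlated with Ripk3 at 0.393 and 0.592, and at -0.00436 on day 3 without those 2 libraries; Ripk3 against Gsdmc4 was then at -0.107 and the Gsdmc genes at 0.762 to 0.820. The libraries share genotype groups, preparation and leukocyte content, so these values describe the libraries and carry no p.

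The genes most like each member over the 29 DSS libraries (mean log2 CPM of at least 2, Pearson r of log2 CPM) were found among all genes outside the 8. Closest to Ripk3 were Trim40 (r = 0.963; 0.943 within day 3 and 0.852 within day 7), Itgb6 (0.960) and Ly6a (0.959). For Mlkl they were Dbnl (0.957), Bak1 (0.945) and Ly6a (0.932), for Zbp1 Il18bp (0.954), Parp9 (0.945) and Ido1 (0.941), and for Gsdmd they included Tinagl1 (0.942) and Ly6g (0.941). Over the 29 libraries Ripk1 had looser partners than these, Ski (0.882), Atp10b (0.873) and Map3k11 (0.865). Within day 3 they were at 0.828, 0.819 and 0.859. Within day 7 they were not uniformly looser, at 0.908, 0.928 and 0.864. The Ripk3 partners were then at 0.852, 0.815 and 0.843, and those of Mlkl at 0.890, 0.740 and 0.567. Those of Zbp1 were at 0.941, 0.892 and 0.879, and Tinagl1 and Ly6g were at 0.812 and 0.876 with Gsdmd. Gsdmcl2 led for Gsdmc4 (0.9754; 0.896 within day 3 and 0.961 within day 7) and for Gsdmc2 (0.869; 0.485 and 0.905). It was followed by Gm15401 (0.886) and Tnni1 (0.882) for Gsdmc4 and by Tsc22d1 (0.804) and Tnni1 (0.800) for Gsdmc2. Within day 3 these were much looser, at 0.297 and 0.615 for Gsdmc4 and 0.043 and 0.394 for Gsdmc2. Within day 7 they were at 0.843, 0.747, 0.876 and 0.734 in the same order. Closest to Gsdmc3 were Dio1 (0.917), Gsdmcl2 (0.900) and Ifi27 (0.899), at 0.582 to 0.608 within day 3 and 0.705 to 0.846 within day 7. Ranked by Spearman's rho instead, 10 of the 24 pairs stayed in the top 3, and 20 of 24 did so by Pearson r over the 27 libraries left without d3_KO_345 and d3_WT_346.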

How the data were processed

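RNA of 38 libraries had been made into stranded mRNA libraries and sequenced as read pairs of 50 bases. Per the submitters' processing notes the authors used Trim Galore, STAR and featureCounts 1.5.2 on GRCm38; the file headers name featureCounts 1.6.2 and counting without strand. The deposited values are raw counts of read pairs per gene, with 2 sequencing lanes per library, which were summed here (lane correlation at least 0.989).

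Each comparison used edgeR 4.0.16 (R 4.3.3): filterByExpr with a minimum count of 10, TMM scaling and the 2-sided quasi-likelihood test, with Benjamini-Hochberg adjustment over every gene tested and a call at an adjusted p under 0.05. The SE is the log2 fold change divided by the root of the F statistic. CPM are TMM-scaled over all 38 libraries; log2 CPM use a prior count of 2. Only the compared groups entered a fit. Alternatives were DESeq2 1.42.0 (size factors, Wald test), no filter, a mean CPM of at least 1, 1 spread over all 38 libraries, marker scores as covariates and leaving out each library. The fits were tested on simulated data. Sequences were handled with Biopython 1.88.

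The 8 genes and all gene lists were chosen with earlier results of these data known, so nothing here is an independent test of them. The 8 genes are named in every comparison; of a list up to 4 called genes with the smallest p are named, and for each member the 3 genes most correlated with it, plus Hk2, Gsdmc and Gsdme. Of the genes these rules pick, 1 of those most like Gsdmd and 1 distal colon gene are not reported here; the latter was also left out of the distal colon score.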

Additional observations from a re-analysis of the deposited data

Results flagged for a closer look

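In 8 of the 48 groups of the 8 genes, 1 library stood far from the rest of its group, by a gap that chance gives in about 1 in 20 groups. The library labelled d3_KO_345 had the highest Ripk1 of KO on day 3, at 51.8 CPM. d7_WT_356 had the highest Ripk3 of its group, at 122.5 CPM, and a leukocyte marker sum of 314 CPM against a group median of 129 CPM. WT day 0 library 41 was the highest of its group for Mlkl, at 24.2 CPM, and for Zbp1, at 35.4 CPM; its interferon-response genes summed to 1335 CPM against a group median of 814 CPM. KO day 0 library 53 had the lowest Mlkl of its group, at 17.3 CPM, in a group that spanned only 17.3 to 18.9 CPM. d3_WT_381 was the highest of its group for Zbp1, at 36.5 CPM, and for Gsdmc2, at 814 CPM, and its interferon-response genes summed to 1219 CPM against a median of 794 CPM. d3_KO_350 had the highest Gsdmc2 of its group, at 808 CPM. The part of these marker sums in the values was not tested.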

How the results depend on the processing

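Of the log2 fold changes of the 8 genes under alternatives other than leaving out a library, 485 kept their direction and side of the threshold, 23 no longer passed, 5 newly passed (Ripk3 in KO from day 0 to day 3 in 3 fits, Gsdmd there and Ripk1 in KO from day 0 to day 7 with no filter) and 15 changed sign. Most losses came with a marker covariate: from day 3 to day 7 the leukocyte score left 0 of the 8 genes and 135 of all genes in WT, and 0 and 1 in KO, and the distal colon score, added after seeing the data, left 2 and 831 in WT and 0 and 3 in KO. Without d3_WT_346 the WT counts over all genes were 110 and 751, and without d3_KO_345 those in KO were 0 and 6. The leukocyte score turned Ripk1 to -0.13 in WT and -0.13 in KO, and in KO Gsdmc2 to 0.54, Gsdmc3 to 0.44 and Gsdmc4 to 0.0023; without those libraries it turned Ripk1 in WT to -0.10, and in KO Gsdmc2 to 0.64, Gsdmc3 to 0.50 and Gsdmc4 to 0.74. In KO against WT it turned Gsdmc3 to 0.14 on day 3 and Gsdmc4 to 0.059 on day 7, and the small intestine score on day 0 turned Ripk3 to -0.0062, Gsdmc3 to 0.22 and Gsdmc4 to 0.21; none of these passed in any fit. Against day 0, Gsdmd in WT on day 3 was -0.012 with DESeq2's size factors, -0.012 by its Wald test and -0.0651 with a mean CPM of at least 1, and with no filter Ripk1 in KO on day 3 was 0.061 and Gsdmc4 in WT on day 7 was 0.067. The causes were not tested.

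Counts over all genes in KO against WT depended on the tool. DESeq2's Wald test called 177 genes on day 0, 2 on day 3, 83 on day 7, 19 over all days and 174 in the interaction of day 7 with day 0, but 0 of the 8 genes in each. With no filter the counts were 52 on day 0 and 2 on day 7. A mean CPM of at least 1 left 0 on day 3, 0 on day 7 and 1 over all days. The leukocyte score left 0 on day 3 and the small intestine score 0 on day 0. With 1 spread over all 38 libraries there were 38 on day 7 and 4 in the interaction.

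Leaving out 1 library at a time gave 0 to 37 genes on day 0, 0 to 1 on day 3, 1 to 2 on day 7 and 0 to 3 in the interaction of day 7 with day 0. It gave 3 to 5 of the 8 genes for KO day 3 against day 0. These small estimates crossed 0: in KO against WT on day 0, Gsdmc2 (-0.12 to 0.40), Gsdmc3 (-0.36 to 0.013), Mlkl (-0.091 to 0.11) and Zbp1 (-0.83 to 0.087); on day 3, Gsdmc2 (-0.076 to 0.25), Gsdmc3 (-0.12 to 0.059) and Gsdmc4 (-0.093 to 0.097); on day 7, Gsdmc2 (-0.31 to 0.040), Gsdmc3 (-0.061 to 0.35) and Gsdmc4 (-0.28 to 0.25). Against day 0 they were Ripk1 in KO on day 3 (-0.052 to 0.024), Gsdmd (-0.011 to 0.043) and Zbp1 (-0.081 to 0.83) in WT on day 3, Gsdmc3 in KO on day 7 (-0.072 to 0.31) and Gsdmc4 in WT on day 7 (-0.12 to 0.089). In the interaction of day 7 with day 0 they were Gsdmc2 (-0.48 to 0.041) and Ripk3 (-0.00068 to 0.17), and in that with day 3, without the library labelled d3_KO_345, Gsdmc4 (0.00084) and Mlkl (0.076), which without d3_WT_346 as well were 0.0038 and 0.055; Gsdmc4 in KO against WT on day 3 was then -0.021. Over all days 7 genes were called without both libraries.

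No paired analysis was possible because the groups compared share no animal numbers. All 8 genes had at least 90 read pairs in every library. In 44 of the 48 groups the spread between libraries was over 2 times the counting error; in the others it was closer, for Ripk1 on day 0 and for Zbp1 in KO on day 0 (12.6% against 8.80%), or below it, for Mlkl in KO on day 0 (3.25% against 6.69%).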
